A study of Mus musculus and synthetic RNA with 74 samples.

Results

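Mat2a, Mat2b and Mat1a encode the methionine adenosyltransferases of the mouse. They were taken by gene name and make up 3 of 20330 genes in the E2.5 (embryonic day) table and 3 of 21199 in that of E3.5, with 27 of 221199 distinct exons and 24 of 199024 distinct introns. The series holds RNA-seq of 70 single mouse embryos from crosses of Mettl16+/- parents, the females being superovulated, and 4 libraries from in vitro methylation reactions. The mutant allele, made in B6D2F1/J embryos whose founders were bred to C57BL/6JRj mice, carries a stop codon cassette inserted into Mettl16. At E2.5, the morula stage, there were 5 WT (Mettl16+/+), 14 HET (Mettl16+/-) and 12 KO (Mettl16-/-) embryos, and at E3.5, the blastocyst stage, 18 WT, 9 HET and 12 KO embryos. The authors read each embryo's genotype from its own Mettl16 reads. In vitro, recombinant full-length human METTL16 was incubated with a pool of random 30-base RNAs. They carry the nonamer UACAGAGAA, taken from human MAT2A mRNA, at bases 12 to 20. Reactions 11 and 12 each gave 1 input library and 1 library of RNA pulled down with an m6A antibody (m6A-IP). The values used for the embryos are the authors' mean over all embryos of a stage, with the 3 genotypes pooled, so every level below mixes WT, HET and KO embryos, carries no error, and cannot show a change with genotype. For the same reason Mettl16, the mutated gene, could not be followed embryo by embryo.

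Methionine adenosyltransferases join methionine and ATP into S-adenosylmethionine (SAM), the methyl donor of nearly all cellular methylation. Mat2a encodes the catalytic subunit used by most cells, Mat2b encodes a regulatory subunit that binds it, and Mat1a encodes the catalytic subunit of adult liver. METTL16 methylates an adenosine within the nonamer UACAGAGAA, the 4th base, in hairpins of the 3′ UTR of MAT2A mRNA, and in human cell lines the level and splicing of that mRNA respond to the supply of SAM. The questions for these genes were therefore how strongly each is expressed in the early embryo, how its introns compare with its exons, which of its transcripts hold the nonamer, and how the structures that form around the nonamer fared in the m6A-IP.

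Mat2a carried 6 nonamers, and all lay in the 3′ UTR of its terminal exon. In the mm10 build (GRCm38), Mat2a (NM_145569) spans chr6:72432799-72439558 on the minus strand in 9 exons. Its terminal exon, chr6:72432799-72434395, has 1597 bases, of which the last 1494 follow the stop codon. Numbered from the stop codon, sites 1, 2, 3, 4 and 6 hold UACAGAGAA and site 5 holds UACAGAAAA, a second form. They begin 40, 824, 1003, 1118, 1229 and 1337 bases after the stop codon, so that sites 2 to 6 follow each other with gaps of 99 to 170 bases while site 1 stands 775 bases upstream of site 2. The windows below give each site with 11 bases before and 10 bases after it, the layout of the in vitro RNAs, since these are the sequences whose folds were looked up among the in vitro structures. They are RNA read 5′ to 3′ from the RefSeq genome of that build, with the nonamer in capitals.

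site 1, chr6:72434235-72434264: uuggcguagguUACAGAGAAgccuucaagc

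site 2, chr6:72433451-72433480: cccuugugauaUACAGAGAAgucacagggc

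site 3, chr6:72433272-72433301: gcugguguagcUACAGAGAAaccagcuucc

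site 4, chr6:72433157-72433186: uauggcguaagUACAGAGAAgccaucaccu

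site 5, chr6:72433046-72433075: ccaagguguccUACAGAAAAaccuuggguu

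site 6, chr6:72432938-72432967: ggcugguguggUACAGAGAAgccagcuugu

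A cluster of this size was rare among terminal exons. Of 24467 genes, each represented by its longest listed terminal exon, 472 (1.93%) held UACAGAGAA and 393 (1.61%) held UACAGAAAA on the transcribed strand, and 1100 (4.50%) held either on the other strand. The forms do not overlap each other. Mat2a alone held 5 copies of UACAGAGAA, and only Kcnq1ot1, with 3 copies of UACAGAGAA and 5 of UACAGAAAA in an exon of 83437 bases, also reached 6 copies of either form. Of the 7552 terminal exons of 1000 to 2500 bases, none had more sites per kb than that of Mat2a (3.76). Of all 24467, 15 had more. The spliced transcripts of Mat2b and Mat1a held neither form on either strand, and neither did the introns of Mat2a and Mat2b. Mat1a had 2 copies of UACAGAAAA on its own strand, in introns 3 and 4 at chr14:41110555-41110563 and chr14:41111622-41111630, whose windows folded into no pair at all.

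The 6 windows were folded with RNAfold, which predicts the pairing of lowest energy, and every fold was among the 36835 structures of the in vitro table. In dot-bracket form, where a bracket is a paired base and a dot an unpaired one, 4 of the 6 windows put the whole nonamer into 1 hairpin loop closed by the base directly after it.

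fold of site 1: ...((..(((((.......)))))....))

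fold of site 2: .(((((((((..........))))))))).

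fold of site 3: ((((((....((....))..))))))....

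fold of site 4: .(((((..............))))).....

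fold of sites 5 and 6: (((((((.............)))))))...

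Site 2 had the longest stem, 9 unbroken pairs at -10.9 kcal/mol, sites 5 and 6 shared 1 fold with 7 pairs, and site 4 had 5 pairs at -5.3 kcal/mol. In sites 1 and 3 the fold paired 2 and 3 bases of the nonamer. The adenosine at base 15 was in a hairpin loop in all 6. With 20 bases of transcript on either side of the nonamer, site 1 left its nonamer unpaired and site 6 paired 5 of its 9 bases, the adenosine included. With 30 bases on either side, the nonamer was unpaired at 5 sites and the adenosine was in a hairpin loop at all 6.

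Mat2a was among the most abundant transcripts of the morula, Mat2b was well expressed, and Mat1a was near the bottom of the gene list. At E2.5, Mat2a had a mean of 29053 normalized counts per embryo, or 10361 per kb of exon, above 98.9% of 19988 genes with a known length (rank 212). Mat2b had a mean of 1824, or 808 per kb, above 89.9% of genes. At E3.5, Mat2a had a mean of 4664, or 1663 per kb, above 93.4% of 20838 genes (rank 1384), and Mat2b had a mean of 749, or 332 per kb, above 80.7%. The level per kb of the catalytic Mat2a was thus 12.8 times that of the regulatory Mat2b in the morula and 5.01 times in the blastocyst. Mat1a had means of 1.36 at E2.5 and 0.0214 at E3.5, above 15.6% and 0.360% of genes. Multiplied by the number of embryos, these come to 42.2 counts over 31 embryos and 0.833 counts over 39, so the adult liver gene was barely detected and its level cannot be ordered between stages. Of 7 early embryo markers, Pou5f1, Gata6 and Krt18 lay above 90.98% of genes or more at both stages, Nanog, Krt8 and Cdx2 above 79.9%, 83.5% and 68.0% at E2.5 and above 93.9%, 99.2% and 89.9% at E3.5, and Zscan4d above 42.8% and 23.1%. Alb was not listed, and Afp, Hbb-bs and Myh6 lay above at most 34.9% of genes.

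**Figure D1:**
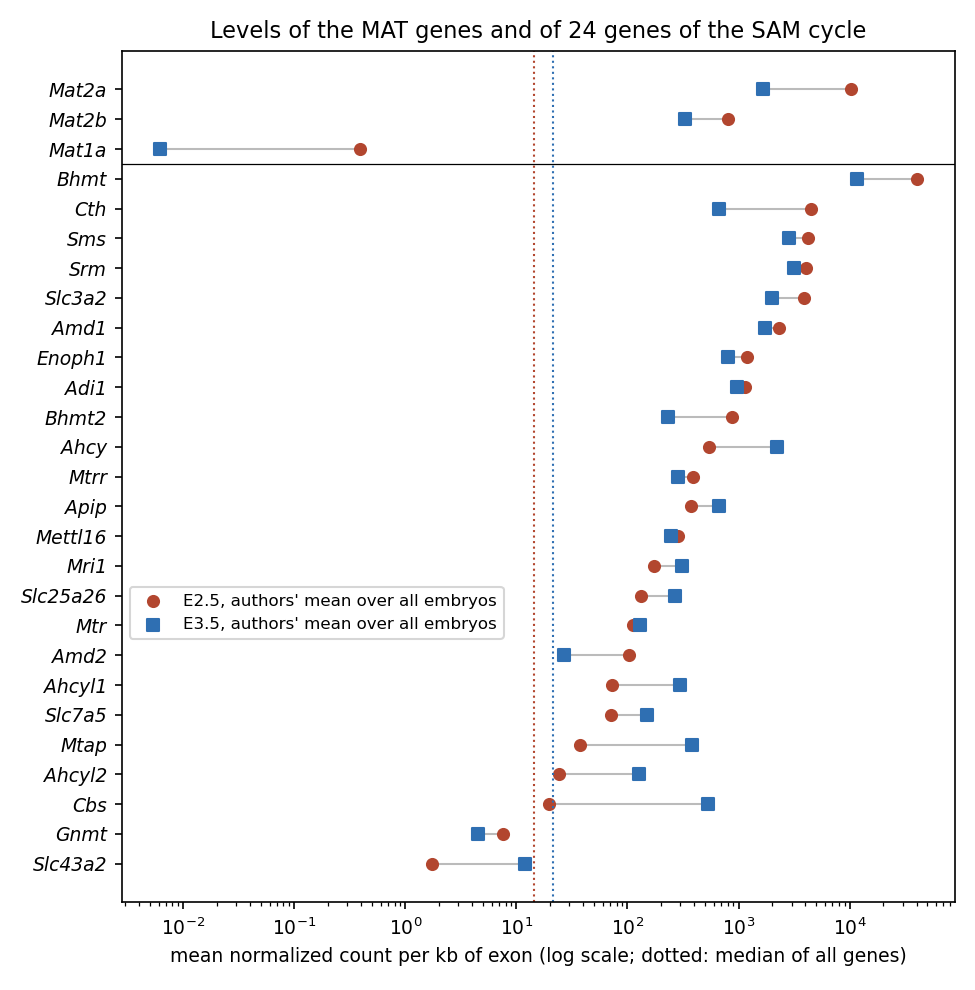
Mean normalized count per kb of exon (horizontal axis, log scale) of Mat2a, Mat2b and Mat1a (top) and of 24 genes of the SAM cycle, at E2.5 (circles) and E3.5 (squares). Each symbol is the authors' mean over all embryos of a stage, and the dotted lines are the medians of all genes (14.5 and 21.4). Mat2a stands at 10361 and 1663, far above Mat1a at 0.390 and 0.00612.

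Set against the other genes of methionine and SAM metabolism, Mat2a was exceeded by 1 gene of the list in the morula. The list of 24 genes holds the methionine cycle, SAM-consuming polyamine synthesis, methionine salvage, transporters and Mettl16, and all 24 were listed at both stages. Their median level was 329 per kb at E2.5 and 346 per kb at E3.5, against 14.5 and 21.4 for all genes with a length, and 22 of the 24 were above the median of all genes at each stage. Bhmt, which remakes methionine from homocysteine with betaine, had the highest level of the list at both stages, 40315 and 11639 per kb, and was the only gene of the list above Mat2a at E2.5. At E3.5, 6 of the 24 were above Mat2a. In the morula 9 of the 24 exceeded Mat2b, in the blastocyst 12. Ahcy, which clears the S-adenosylhomocysteine left after methyl transfer, had 541 and 2199 per kb. Mtr, methionine synthase, had 111 and 129 per kb, and Mettl16 had 286 and 246 per kb. The lowest of the list were the amino acid transporter Slc43a2 at E2.5 (1.74 per kb) and Gnmt, the SAM-using glycine methyltransferase, at E3.5 (4.53 per kb).

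The tables of the 2 stages were normalized separately, so stages were set side by side only as shares of the sum of all gene means. Of every 1000000 summed counts, Mat2a made up 1233 at E2.5 and 172 at E3.5, a ratio of 7.18. Mat2b made up 77.4 and 27.6 of every 1000000, a ratio of 2.81. Among 7599 genes with a mean of at least 100 at both stages, the median log2 ratio was -0.18, and the log2 ratios of Mat2a (2.84) and Mat2b (1.49) were higher than those of 98.4% and 91.1% of these genes. Over the list of 24 the ratios ran from 0.0422 (Cbs) to 7.72 (Cth), with a median of 1.36, 13 above 1 and 11 below. Only Cth, which makes cysteine from cystathionine, exceeded Mat2a, and Amd2 (4.42), Bhmt2 (4.29), Bhmt (3.99) and Cth exceeded Mat2b. Mettl16 had 1.34, Mtr 0.996 and Ahcy 0.284. Cbs, Cth, Amd2 and Bhmt2 were named after their values were seen. The genotype mix also differed between stages. WT embryos made up 16.1% at E2.5 and 46.2% at E3.5, HET embryos 45.2% and 23.1%, and KO embryos 38.7% and 30.8%. The E2.5 percentage over that of E3.5 was 0.349 for WT, 1.96 for HET and 1.26 for KO. With the same genotype means at both stages, the mix alone could thus multiply a pooled mean by at most 1.96. How far the mix moved the ratios was not tested. Since the means pool the genotypes, a genotype difference that itself changes with stage cannot be told apart from stage. Fewer cells of a type and less RNA per cell cannot be told apart either in whole embryos. Coverage along transcripts differed between the stages too. Terminal exons of 1000 to 3000 bases had a median of 23.9% of the inner exon density at E2.5 and 70.9% at E3.5. How far this moved the shares was not tested.

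By the distance between log2 shares per kb over the 2 stages, among 17068 protein-coding genes, the genes nearest to Mat2a were Gulo (distance 0.093), Guca1a (0.19) and Nolc1 (0.20). Mat2a stood at 439.8 and 61.3 per 1000000 and kb, and Gulo at 469 and 60.6. Those nearest to Mat2b were Rnf2 (0.017), Dhx9 (0.018) and Usp22 (0.040). Likeness over 2 pooled means describes levels and nothing more.

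Reads of Mat2a came almost wholly from its exons, and its last intron held the highest intron density. Introns made up 0.835% of the summed exon and intron means at E2.5 (432 against 51327 for the exons) and 1.04% at E3.5 (60.2 against 5736). The 7 inner exons were even, with 30474 to 43034 per kb at E2.5 and 2438 to 3914 per kb at E3.5. Exon 1 was lower, at 17132 and 753 per kb. The terminal exon, which carries the nonamers, had 8373 and 1600 per kb, that is 23.6% and 53.5% of the median inner exon. Terminal exons of 1000 to 3000 bases were in general lower than inner exons in these libraries, with a median of 23.9% over 3483 of them at E2.5 and 70.9% over 3705 at E3.5, so that of Mat2a was higher than 49.5% and 42.6% of them.

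**Figure D2:**
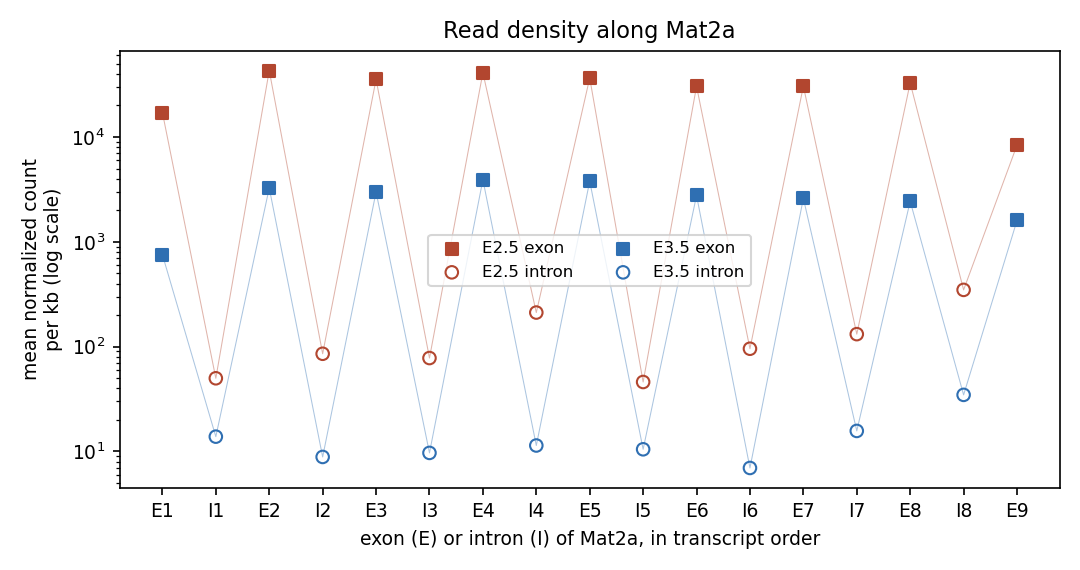
Mean normalized count per kb (vertical axis, log scale) of each exon (squares) and intron (circles) of Mat2a in transcript order, at E2.5 (red) and E3.5 (blue). Each symbol is the authors' mean over all embryos of a stage. Intron 8 is the highest intron at both stages, at 348 and 34.6 per kb, against inner exons of at least 30474 and 2438 per kb.

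Intron 8, the last, at chr6:72434396-72434980, has 585 bases and begins and ends with the usual GU and AG. Its 5′ splice site reads tgtcagGTaaagatggtaaa (chr6:72434967-72434986) and its 3′ splice site reads cttgtatattccAGggatct (chr6:72434390-72434409), as DNA of the minus strand with the intron's first and last 2 bases in capitals. They are shown because this is the intron whose removal METTL16 was proposed to promote. It had a mean of 204 at E2.5 and 20.3 at E3.5, which was 47.1% and 33.7% of the summed intron means of the gene. Its density was 1.901% of that of all Mat2a exons at E2.5 and 1.69% at E3.5, against 0.251% to 1.16% and 0.340% to 0.767% for introns 2 to 7. Of all introns that overlap no listed exon, in transcripts with a summed exon mean of at least 100, 81.7% of 95653 had a lower density relative to their exons at E2.5 and 66.4% of 100158 at E3.5. Among introns of 400 to 800 bases, 83.3% and 73.4% were lower, and among last introns 78.2% and 60.6%. With the median exon density as the reference, which the low terminal exon does not lower, the shares were 74.5% and 53.8%. Among transcripts with summed exons of at least 1000, they were 89.3% and 77.7%. The last intron of Mat2a was thus in the upper part of the range at E2.5. At E3.5 its place ran from 53.8% to 77.7% with the reference chosen, and no error can be put on any of these shares. The paper names annotated Mat2a variants that use another 3′ splice site for this intron. Whether such variants or incompletely spliced RNA gave the reads of intron 8 was not tested. Exon 1 and part of intron 1 overlap Particl, a gene on the plus strand at chr6:72438683-72440615. The gene table, made from transcripts, gives Particl a mean of 75.6 at E2.5 and 12.9 at E3.5, while the exon table, made from genome positions, gives its exon 3693 and 169.7, close to the 3649 and 160.4 of Mat2a exon 1. As the libraries do not keep strand, reads of Particl and of Mat2a exon 1 and intron 1 cannot be told apart in the exon table. Particl was named after its values were seen.

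Mat2b (chr11:40679314-40695203, minus strand) was read from both of its first exons. Its listed transcripts NM_134017 and NM_001199274 share 6 exons and differ in the first. The first exon of NM_134017 (chr11:40692478-40692682) had a mean of 167 at E2.5 and 25.9 at E3.5. That of NM_001199274 (chr11:40694803-40695203) had a mean of 231 and 36.7. Per kb the first was 1.42 and 1.38 times the second, and both lay below the inner exons of the gene, whose medians were 3178 and 838 per kb. The introns that overlap no listed exon were sparse, at 0.0287% to 0.358% of the exon density at E2.5 and 0.0242% to 1.13% at E3.5. The last intron of Mat2b stood at 0.331% and 0.389%, with 43.7% and 32.6% of introns lower, at both stages well below the last intron of Mat2a. It rested on means of only 2.58 and 0.877 normalized counts, against 204 and 20.3 for that of Mat2a. The first intron of NM_001199274 had a mean of 181 and 48.0 but holds the other first exon, and is left out of that range.

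Mat1a (NM_133653, chr14:41105033-41124428, plus strand, 10 exons) showed reads in 9 of 10 exons and in 0 of 9 introns at E2.5, the exon means lying between 0 and 0.391. At E3.5, 1 exon and 2 introns were above 0, none with a mean above 0.0532. Mat1a and Mat2a are paralogs, and exons 3 to 9 of Mat1a have the same lengths as exons 2 to 8 of Mat2a, from 78 to 219 bases. Over these 994 bases their sequences were 73.9% identical, and the longest run that the 2 transcripts share was 15 bases.

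In the in vitro reactions, none of the structures formed by the Mat2a windows was enriched in m6A-IP, and 3 of the 5 distinct structures, those of sites 2, 4, 5 and 6, were depleted. Each value is the number of reads whose random RNA was predicted to fold into that structure, divided by the authors' size factor. A structure pools many sequences, and the RNA counted for it is in general not Mat2a RNA. Site 5 differs also in its nonamer. The ratios compare shares within the random pool and do not measure methylation of Mat2a RNA. In the paper, METTL16 methylated a hairpin of human MAT2A mRNA and some shorter versions of it in vitro. From this random pool the paper reported that enriched structures more often had the adenosine in a bulge or between stems. Reads over the listed structures were estimated from the steps between low values, and are not full library sizes. They came to 20454163 and 18106811 in the inputs of reactions 11 and 12. In the m6A-IPs of these reactions they came to 22118622 and 1154715. The last library is thus the shallowest by far, with a median of 6 reads per structure. Over all 36835 structures, limma's moderated test on log2(value + 5) called 39.8%, of which 12.5% of all structures enriched and 27.2% depleted, at an adjusted p under 0.1 (Benjamini-Hochberg), and the median log2 ratio of m6A-IP over input was -0.27. Both m6A-IP values were below both input values in 47.3% of structures and above both in 25.3%. The split moved with the scaling: 4621 structures were enriched and 10036 depleted with the authors' size factors, against 8299 and 9130 with library totals, under which the median was -0.055.

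The structure of site 2 had the lowest ratio. It had 124 and 135 normalized reads in the inputs of reactions 11 and 12, and 30.8 and 41.6 in the m6A-IPs. The groups were far apart, although the m6A-IP of reaction 12 rests on 6 reads. The log2 ratio was -1.72 (SE 0.21, limma adjusted p = 0.0137), with 3.05% of structures lower.

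The fold shared by sites 5 and 6 had 988 and 985 in the inputs and 480.3 and 437 in the m6A-IPs. Inputs agreed closely and both m6A-IPs were lower. Its log2 ratio was -1.10 (SE 0.15, limma adjusted p = 0.0139), with 13.9% of structures lower. The structure of site 4, the most abundant of the 5, had 4211 and 4238 in the inputs and 2861 and 2225 in the m6A-IPs. Its log2 ratio was -0.74 (SE 0.18, limma adjusted p = 0.0381), with 27.0% of structures lower. Structures whose mean lay within 2 times that of site 4 had a median of -0.48, with 33.2% lower than site 4, and the like medians were -0.29 for sites 5 and 6 (11.3% lower) and -0.27 for site 2 (2.96% lower). With either input left out, the adjusted p rose to 0.144 and 0.147 for the fold of sites 5 and 6 and to 0.445 and 0.459 for that of site 4, although the log2 ratios stayed at -1.10 and at -0.75 and -0.74. In these fits the calls over all structures fell to 871 enriched and 2104 depleted without the input of reaction 11 and to 855 and 1994 without that of reaction 12. The calls of sites 4, 5 and 6 were thus lost without either input, in fits whose spread comes only from the 2 m6A-IP libraries. That of site 2 held in every fit without 1 library, but the fits without an m6A-IP take their spread from the 2 inputs alone.

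The structures of sites 1 and 3, where the nonamer was partly paired, did not pass the test. Site 1 had 59.6 and 63.7 in the inputs and 50.1 and 48.5 in the m6A-IPs, a log2 ratio of -0.30 (95% interval -0.77 to 0.18, limma adjusted p = 0.277). Site 3 had 339 and 303 in the inputs and 338 and 222 in the m6A-IPs, a log2 ratio of -0.22 (95% interval -0.80 to 0.35, limma adjusted p = 0.489). The m6A-IPs of site 1 lay below its inputs, and those of site 3 overlapped them. Both ratios lay close to the median of all structures, -0.03 and 0.04 away from it. Without the m6A-IP of reaction 11, both were called depleted, at -0.32 (adjusted p = 0.0563) and -0.52 (adjusted p = 8.64e-12), in fits where a lone m6A-IP library is assumed to vary like the inputs. The direction for site 3 turned to 0.07 without the m6A-IP of reaction 12, and to 0.0048 with values scaled to library totals.

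**Figure D3:**
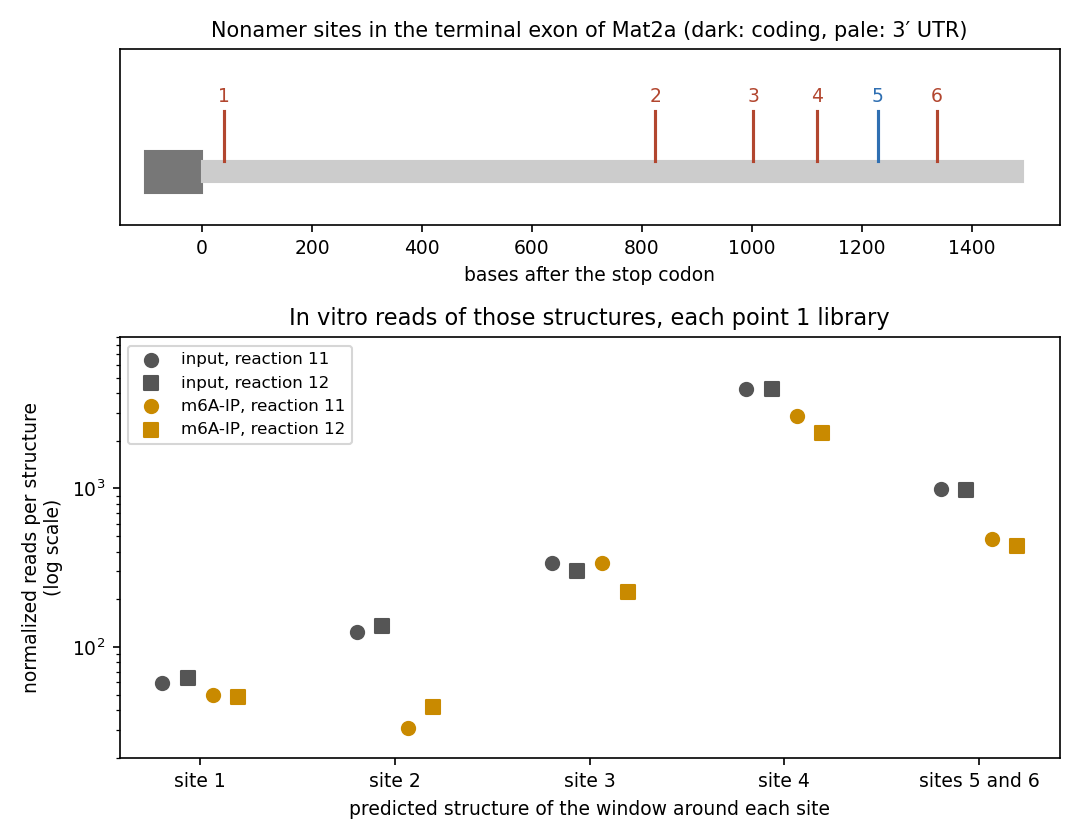
Top, nonamer sites 1 to 6 by their distance from the stop codon in the terminal exon of Mat2a (red, UACAGAGAA; blue, UACAGAAAA). Bottom, normalized reads (log scale) of the structure predicted for each site's window, 1 point per library. For sites 1, 2, 4, 5 and 6 both m6A-IP points lie below both input points, by least for site 1, and for site 3 they overlap. Of all 36835 structures, 47.3% had both m6A-IP values below both input values.

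Structures of the same shape as those of sites 2, 4, 5 and 6 are described here without a test, since the class was drawn up after the values were seen. Of the 36835 structures, 4545 held the whole nonamer in 1 hairpin loop, with a median log2 ratio of -0.34, 11.0% enriched and 31.2% depleted. In 1519 of these the loop closed directly after the nonamer, with a median of -0.37, 10.5% enriched and 31.7% depleted. Split by the number of unbroken pairs that close the loop, medians were -0.46 for 3 pairs (375 structures), -0.72 for 4 (180), -0.98 for 5 (71) and -1.36 for 6 (24). Depleted structures made up 35.2%, 53.3%, 73.2% and 95.8% of these, and enriched ones 4.80%, 1.67%, 0 and 0. The folds of sites 4, 5, 6 and 2, at -0.74, -1.10, -1.10 and -1.72, belong to the classes of 5, 7, 7 and 9 pairs, of which the last 2 hold only 8 and 2 structures. The wholly unpaired structure, the most abundant one, had 1341250 and 1329814 in the inputs and 1269075 and 988861 in the m6A-IPs, a log2 ratio of -0.25 (limma adjusted p = 0.736).

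**Figure D4:**
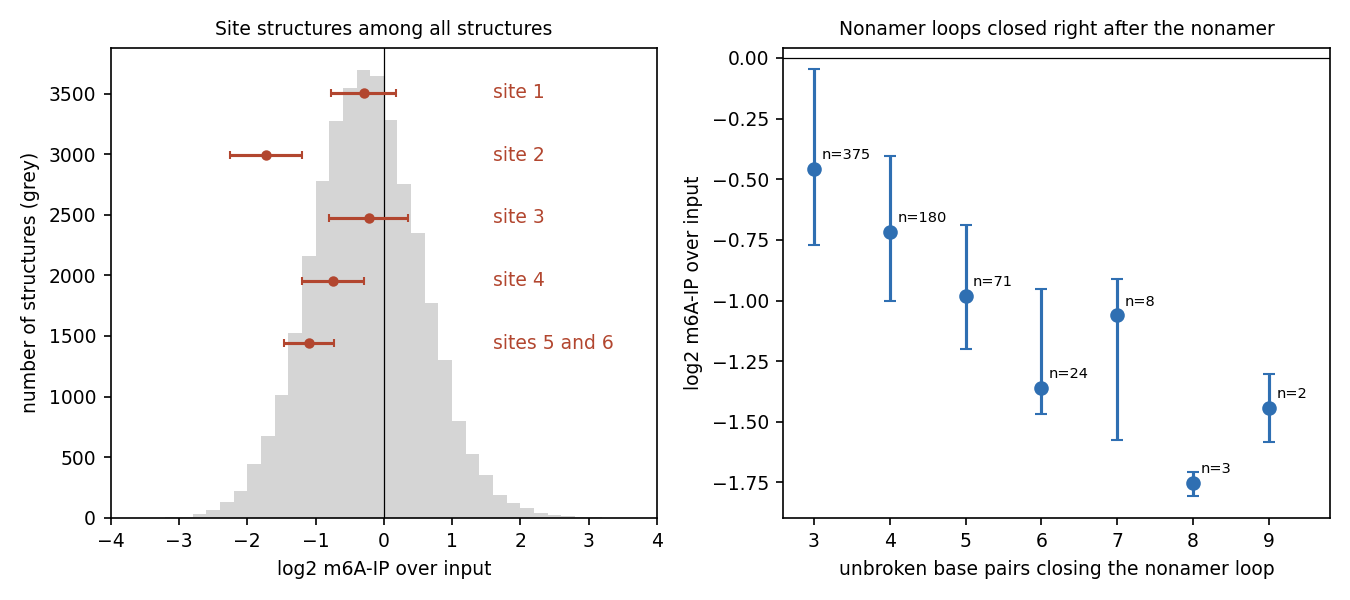
Left, log2 m6A-IP over input of the Mat2a site structures (points, with 95% intervals) over the histogram of all 36835 structures (grey). Right, median log2 ratio with quartiles of structures whose nonamer loop closes directly after the nonamer, by the number of unbroken pairs closing it and with the number of structures (n), falling from -0.46 at 3 pairs to -1.36 at 6; the bins beyond 6 pairs hold at most 8 structures and do not follow an order.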

How the data were processed

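Polyadenylated RNA of single embryos was amplified by Smart-seq2 without strand. Per the submitters' processing notes the authors used Salmon 0.7.2 on RefSeq transcripts (mm10), STAR, featureCounts, DESeq2 1.18.1, R 3.4.3 and cutadapt 1.9.1. The deposited embryo tables give, as a signal, 1 mean of size-factor-normalized counts per gene, exon or intron over all embryos of a stage, and the authors' fold changes and adjusted p-values between genotypes, which were not used; no values per embryo were used, so no genotype comparison was made and the depth per embryo is not given in the tables used (the gene means sum to 23557112 at E2.5 and 27145016 at E3.5). The deposited in vitro signal is reads per RNAfold structure divided by the authors' size factors, with their comparison columns, also not used.

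Levels were divided by the summed length of a gene's distinct exons, and introns of under 50 bases were left out. The test of the in vitro structures was that of limma 3.58.1 (R 4.3.3, trend, two-sided, pseudocount 5, threshold 0.1, 2 m6A-IP against 2 input libraries), so fold changes are on the log2(value + 5) scale and understate those of rare structures; p-values cover the spread between these libraries only. On simulated data of 36835 structures, 48% of 100 changes of 2 and 73% of 100 changes of 3 on the log2 scale were recovered. The simulation shuffled the spread over structures and changed only 200 of them, so these shares need not hold for the real fit. The value of 1 read was taken from the steps between low values (all low values whole within 0.05 reads). Reactions 11 and 12 each gave an input and an m6A-IP, which pairs them, per the study's methods; deviations from the group means correlated at only 0.021 over 11379 structures with a mean of at least 100. Windows were folded with RNAfold 2.7.2 and introns checked with bedtools 2.31.1. All 58 inner exon borders of the 4 transcripts matched RefSeq on GRCm38.p6.

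The members and lists were chosen with earlier results of these data known. The named-gene rule was the 3 members; of the 24-gene list the highest, the lowest, Ahcy, Mtr and Mettl16; the 3 nearest genes; and the structures of the nonamer windows.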

Additional observations from a re-analysis of the deposited data

How the results depend on the processing

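The embryo levels were ranked in other ways. With summed exons, 17.1% (Mat1a, E2.5), 0.490% (Mat1a, E3.5), 92.9% (Mat2a, E3.5) and 81.3% (Mat2b, E3.5) of genes were lower. Without division by length, 20.7% and 1.01% were lower than Mat1a, 99.4% and 95.2% than Mat2a, and 77.5% than Mat2b at E3.5. Among genes with a mean of at least 10, 98.3% and 89.4% were lower than Mat2a and 83.7% and 69.2% than Mat2b. Mat2a over Mat2b was 11.4 and 4.49 with summed exons and 15.9 and 6.22 without length. The stage ratios of shares were 7.52 (Mat2a) and 2.97 (Mat2b) with summed exons. For the last intron of Mat2a, the share of lower introns was 74.5% and 53.8% with the median exon as reference, 89.3% and 77.7% among transcripts with summed exons of at least 1000, and 81.4% at E2.5 with the intron shortened by 10 bases at each end; for that of Mat2b it was 37.6% and 25.1%, and 52.7% and 42.1%.

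In vitro, pseudocounts of 1 and 20, a minimum mean of 20 and library totals kept all 5 site calls, but library totals turned the uncalled ratio of site 3 to 0.0048 and gave 8299 enriched structures in place of 4621. With the reaction as a replicate block, 4282 structures were enriched and 10863 depleted, the ratio of site 2 was -1.72 (limma adjusted p = 1.94e-07), and no site call changed. Leaving out 1 library at a time gave 855 to 11188 enriched and 1994 to 20642 depleted structures, and log2 ratios of -0.34 to -0.25 (site 1), -1.91 to -1.53 (site 2), -0.52 to 0.073 (site 3, the last without the m6A-IP of reaction 12), -0.92 to -0.56 (site 4) and -1.17 to -1.03 (sites 5 and 6); the lone library is assumed to vary like the others. Each of these fits takes its spread only from the group that keeps 2 libraries. The cause of these shifts was not tested. The planned count tests (edgeR, DESeq2) and the genotype comparison were not run, since the values used are neither counts as deposited nor values per embryo. With 6 to 7 reads in the m6A-IP of reaction 12, depth limits the values of sites 1 and 2 most.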
